A study of Mus musculus with 4 samples.

Results

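The BCL2 family genes described here are 9 survival and death genes, Bcl2, Bcl2l1, Mcl1, Bcl2a1b, Bcl2l11, Bax, Bak1, Bad and Bid. They were chosen by name for their place in the family, with earlier results of these data known. The choice leaves out 2 further BH3-only genes (Pmaip1 and Bbc3). The rows of the 9 were found through the Ensembl IDs of the tables. All 9 were among the 38282 genes of each table and among the 11423 genes tested, so no member was lost to the filter on low values. The RNA came from naive CD4+ T cells of the spleen of C57BL/6 mice, activated in Th0 culture, that is with no lineage-directing cytokines added, and collected on day 4. The Th0 group had no dopamine, and the Th0+Dopa group was the same culture with dopamine. Each group held 2 libraries, numbered 2 and 3. By its title, the study is about dopaminergic nerves in the postnatal lung and Th2 inflammation. No source used here gives the dopamine dose, when it was added, or the age of the mice.

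BCL2 family proteins decide at the outer membrane of the mitochondrion whether a cell starts apoptosis. The effectors BAX and BAK, when active, assemble into pores that let cytochrome c reach the cytosol, where it starts the caspase cascade. The anti-apoptotic proteins (BCL2, BCL-XL, MCL1 and A1) hold the effectors and their activators in check, and the BH3-only proteins (BIM, BAD, BID) engage the anti-apoptotic proteins or activate the effectors when survival signals fail or damage is sensed. In T cells, BCL2 is known for supporting the survival of resting cells, MCL1, BCL-XL and A1 for supporting activated cells, and BIM for removing T cells at the end of a response.

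Expression is given in FPKM (fragments scaled to transcript length and library depth), in separate tables for the libraries numbered 2 and 3. For single-transcript genes, 90.4% to 91.5% of low values lay within 0.15 fragment of a whole fragment. A step fixed in advance would give 30% by chance. Here the step was chosen in each library to make this share largest, so 30% is not its chance level. That step, for a 1 kb transcript, was 0.2 FPKM in Th0 3 and 0.15 to 0.154 FPKM in the other libraries, which makes Th0 3 the shallowest by this estimate. It nevertheless had the most genes above 0 (19177, against 15974 to 17833), and scaling by the authors would also move the step, so its depth is uncertain. Cd4, the defining marker of the labelled cells, stood at 115 to 123 FPKM in the 4 libraries, and Cd8a at most at 0.853. The make-up of the libraries moved with the groups. Mitochondrial genes held 5.64% and 8.41% of all FPKM without dopamine and 1.55% and 3.35% with it. For small RNA genes the percentages were 18.3 and 16.5, then 26.0 and 20.6. Markers of granulocytes and mast cells (10 genes, 9 of 9 tested called lower) summed to 473 and 636 FPKM in Th0 and to 52.3 and 51.0 with dopamine, where Elane was listed at 0. Those of macrophages and dendritic cells (12 genes, 9 of 11 tested called lower) summed to 292 and 365 FPKM against 106 and 76.9, with none at 0. The most abundant markers of the first list were Mcpt8 (142 and 187 FPKM against 15.8 and 15.03) and Prss34 (125 and 157 against 16.3 and 14.2), and of the second Lyz2 (121 and 136 against 14.3 and 13.3) and Cst3 (57.7 and 62.4 against 74.9 and 46.6). Of 13 T cell identity genes, 4 were called higher and 1 (Trac) lower. Trbc2, another of them, was not called. Nor were the 2 tested B cell markers (Ighm and Cd79b) or the 1 tested CD8 T cell and NK marker (Cd8b1), and these lists summed to 15.2 to 25.1 and 4.95 to 6.98 FPKM. In bulk RNA, fewer cells of a type and less RNA per cell cannot be told apart.

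The sequences upstream of the 3 members that passed the test are shown first, since they are the genes the results turn on. They come from RefSeq on GRCm38.p6 (the mm10 build), cover up to 250 bases before the RefSeq start on the strand of the gene, and stop where the GENCODE transcript begins. Capitals mark every match to 8 short motifs, searched on both strands and spelled out beside the results. Bcl2 is at chr1:106714291-106714540 (minus strand), Bcl2l11 at chr2:128125788-128126037 (plus strand) and Bcl2a1b at chr9:89199023-89199208 (plus strand).
Bcl2: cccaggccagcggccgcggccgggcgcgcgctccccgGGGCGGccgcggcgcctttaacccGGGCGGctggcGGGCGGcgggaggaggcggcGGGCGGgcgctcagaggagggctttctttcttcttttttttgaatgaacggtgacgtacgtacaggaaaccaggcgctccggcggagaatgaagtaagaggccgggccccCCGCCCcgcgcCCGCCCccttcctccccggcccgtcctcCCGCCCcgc
Bcl2l11: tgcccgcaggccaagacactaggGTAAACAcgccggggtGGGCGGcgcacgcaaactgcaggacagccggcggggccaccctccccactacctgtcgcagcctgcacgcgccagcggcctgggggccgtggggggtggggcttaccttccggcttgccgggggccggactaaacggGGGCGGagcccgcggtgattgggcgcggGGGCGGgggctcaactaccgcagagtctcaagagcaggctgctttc
Bcl2a1b: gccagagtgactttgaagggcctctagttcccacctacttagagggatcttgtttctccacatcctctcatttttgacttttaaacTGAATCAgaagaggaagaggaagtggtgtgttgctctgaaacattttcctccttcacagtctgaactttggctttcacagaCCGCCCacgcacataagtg
The Bcl2 and Bcl2l11 windows were rich in G and C (74.8% and 72% of bases, with 36 and 24 CpG), and the Bcl2a1b window was not (2 CpG in 186 bases). Bcl2 held 7 GC boxes, with the letters GGGCGG, a motif present in 32.7% of the 32851 RefSeq windows of 250 bases. Bcl2l11 held 3 GC boxes and a match to the FOXO letters GTAAACA at positions -227 to -221 from the start, a match found in 3.17% of windows. A second RefSeq window of Bcl2l11, not printed here, held 2 GC boxes and no match to the FOXO letters. Bcl2a1b held a GC box and, at -164 to -158, the letters TGAATCA. They match the letters TGANTCA used for AP-1, which allow any base in the middle and were found in 6.75% of windows. No 2 of the matches printed here overlap. None of the 3 held a match to the other motifs. These were the CRE letters TGACGTCA, present in 1.55% of all windows, and the E-box CACGTG, present in 6.02%. The STAT letters TTCNNNGAA were present in 7.02%, the TATA element TATAAA in 12.4% and an NF-kB motif in 1.41%. These matches are descriptions of the letters and not binding sites.

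A second set of sequences shows how far the value of Bcl2a1b belongs to that gene alone. Mice carry several A1 genes on chromosome 9, and Bcl2a1b (coding sequence of 516 bases in GENCODE M21) differed from Bcl2a1d at 6 bases (98.8% identity) and from Bcl2a1a at 11 (97.9%). The first 60 coding bases hold 6 of the 12 positions at which the 3 copies differ, and capitals mark those positions. They lie at chr9:89199360-89199419 in Bcl2a1b.
Bcl2a1b: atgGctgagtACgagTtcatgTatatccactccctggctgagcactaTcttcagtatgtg
Bcl2a1a: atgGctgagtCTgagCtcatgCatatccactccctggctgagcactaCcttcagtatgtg
Bcl2a1d: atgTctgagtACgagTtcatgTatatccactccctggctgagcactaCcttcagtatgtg
Of the 467 stretches of 50 bases in the Bcl2a1b coding sequence, 52.7% also occur unchanged in another copy. A further gene, Gm29094, shares 49.1% of the exon bases of Bcl2a1b on the same strand. No row was matched to Bcl2a1a, Bcl2a1d or Gm29094. The value listed for Bcl2a1b may therefore hold fragments of the other copies and is best read as A1.

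With dopamine, members differed from Th0 in both directions. Bcl2l11 (BIM) and Bcl2a1b (A1) rose, Bcl2 fell, and the other 6 did not pass the test (limma on log2(FPKM + 1) with the table as a block, Benjamini-Hochberg adjusted p under 0.05). Members called higher were thus 2 of 9 and members called lower 1 of 9, where 6.28% of all tested genes were called higher, 4.39% lower and 10.7% in either direction. With counts this small, the share of members called is not set apart from that background. The difference between Th0+Dopa and Th0 (log2, mean of the 2 within-table differences) ran from -0.68 for Bcl2 to 0.81 for Bcl2l11, with a median of 0.33 over the members and 0.03 over all tested genes. In 5 members Th0+Dopa was above Th0 in both tables, in 3 below in both, and in 1 (Bcl2l1) the tables went opposite ways. Among all tested genes 69.9% had the same sign in both tables. The FPKM of the groups did not overlap for 7 of the 9 members, but neither did they for 57% of tested genes, and levels across the tables come from tables made separately.

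**Figure D1:**
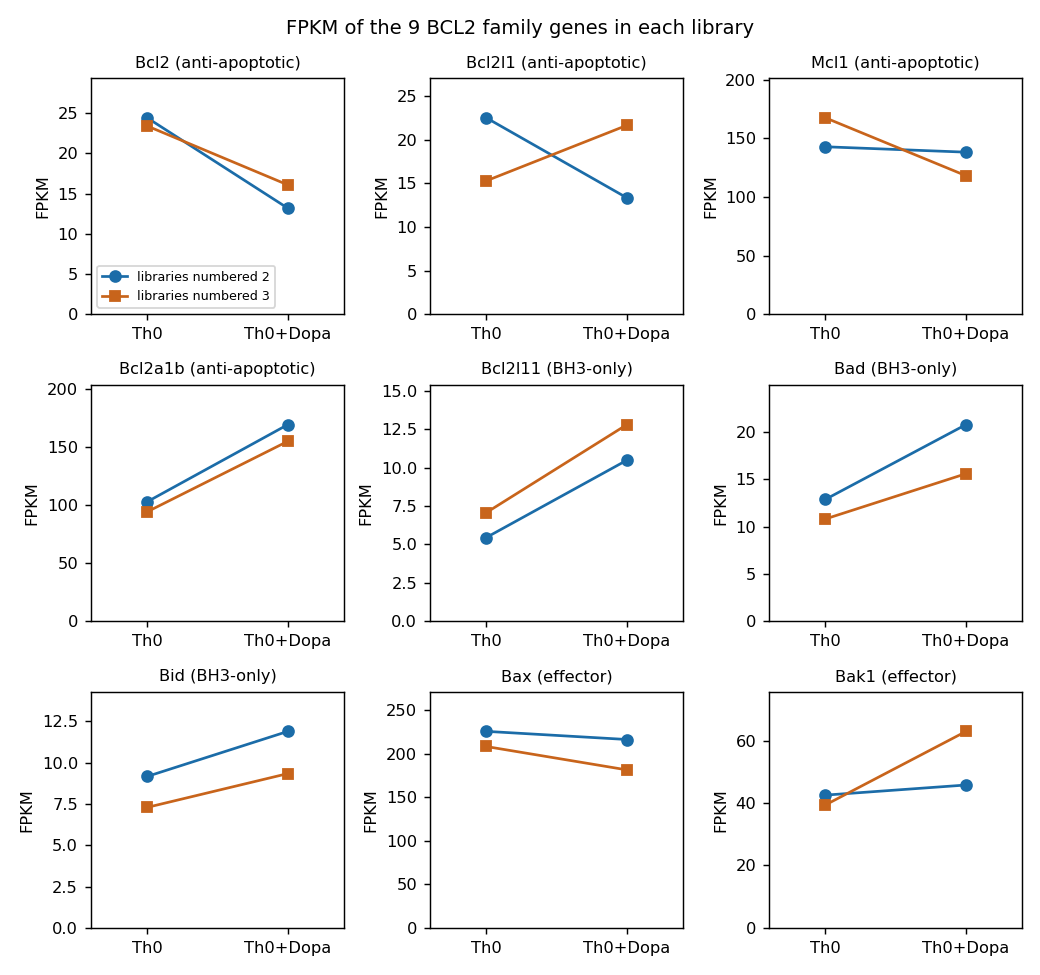
FPKM (linear axis from 0) of each member in the Th0 and Th0+Dopa libraries; circles are the libraries numbered 2, squares those numbered 3, and lines join the libraries of 1 table. The lines of Bcl2a1b and Bcl2l11 rise and those of Bcl2 fall in both tables, while the lines of Bcl2l1 cross, from 22.5 to 13.3 FPKM in one table and from 15.3 to 21.7 in the other.

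Among the anti-apoptotic members, Bcl2 fell and Bcl2a1b rose. Bcl2 (ENSMUSG00000057329, chromosome 1, 106538178 to 106714274, GRCm38) stood at 24.4 FPKM in Th0 2 and 23.4 in Th0 3, and at 13.2 in Th0+Dopa 2 and 16.1 in Th0+Dopa 3. Both dopamine libraries were below both Th0 libraries, and within the tables Bcl2 fell by 46.1% and fell by 31.3%. The group means were 23.9 ± 0.719 and 14.6 ± 2.05 FPKM (SD, n = 2), and the log2 difference was -0.68 ± 0.15 (SE, limma adjusted p = 0.0457). Bcl2a1b (ENSMUSG00000089929, chromosome 9, 89199209 to 89207827) stood at 103 FPKM in Th0 2, 94.0 in Th0 3, 169 in Th0+Dopa 2 and 155 in Th0+Dopa 3. The rise was nearly the same in both tables, 1.65-fold in each, and larger than the spread within either group. Its log2 difference was 0.71 ± 0.10 (limma adjusted p = 0.0140), the smallest adjusted p of the members. A1 is made abundantly by granulocytes and other myeloid cells as well as by activated T cells, and the marker lists of those cells were lower with dopamine in the same libraries (473 and 636 FPKM against 52.3 and 51.0 for granulocytes and mast cells). Their part in the values of Bcl2a1b was not tested.

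Mcl1 and Bcl2l1, the anti-apoptotic genes best known for keeping activated T cells alive, did not pass. Mcl1 (chromosome 3, 95658788 to 95663176) stood at 143 FPKM without and 138 with dopamine in the first table and at 167 and 118 in the second. The first table hardly differed and the second did, and the log2 difference was -0.27 ± 0.14 (adjusted p = 0.258). Mcl1 did pass, as lower, when libraries were scaled to a common sum (-0.53, adjusted p = 0.0335), a scaling that moved the median of all genes to -0.20, and under both other common-sum scalings (adjusted p = 0.0316 and 0.0184). Bcl2l1, which encodes BCL-XL (chromosome 2, 152780668 to 152831728), stood at 22.5 FPKM in Th0 2 and 13.3 in Th0+Dopa 2, but at 15.3 in Th0 3 and 21.7 in Th0+Dopa 3. One table showed a log2 difference of -0.71 and the other of 0.48, and the groups overlapped. The mean difference was -0.12 with an SE of 0.28 (limma adjusted p = 0.832). As for every member, that SE is limma's and draws mostly on the spread of all tested genes. GENCODE M21 lists 9 transcripts of Bcl2l1, 8 of them coding, and the gene-level FPKM does not separate them.

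All 3 BH3-only members had higher FPKM with dopamine in both tables, as 37.6% of all tested genes did, and Bcl2l11 passed the test. Pmaip1, a BH3-only gene left out of the members, was called lower. Bcl2l11, which encodes BIM (ENSMUSG00000027381, chromosome 2, 128126038 to 128162547), stood at 5.45 FPKM in Th0 2, 7.07 in Th0 3, 10.5 in Th0+Dopa 2 and 12.8 in Th0+Dopa 3. Both dopamine libraries were above both Th0 libraries, 1.93-fold and 1.81-fold within the tables. The log2 difference was 0.81 ± 0.17 (limma adjusted p = 0.0409), and the group means were 6.26 ± 1.15 and 11.7 ± 1.64 FPKM (SD, n = 2). Its level rested on an estimated 35.3 to 83.2 fragments per kilobase in the 4 libraries, the fewest of the members in 3 of them. Bad, whose protein engages BCL2 and BCL-XL unless it is phosphorylated by survival kinases (chromosome 19, 6941861 to 6951899), stood at 12.9 and 10.8 FPKM in Th0 (2 and 3) and at 20.8 and 15.6 with dopamine. The groups did not overlap, yet its log2 difference of 0.57 ± 0.15 missed the threshold (adjusted p = 0.0655). Bad passed with a pseudocount of 0.1 (adjusted p = 0.0465), but its difference was 0.25 with GC content and length corrected for (adjusted p = 0.321) and 0.33 with a common sum (adjusted p = 0.258). Bid, which carries signals from death receptors to the mitochondrion once it is cleaved (chromosome 6, 120891930 to 120916853), stood at 9.16 and 7.29 FPKM in Th0 and at 11.9 and 9.34 with dopamine. The within-table folds were 1.30 and 1.28, with a log2 difference of 0.33 ± 0.16 (adjusted p = 0.250). It was 0.10 with a common sum, and 0.16 (without Th0+Dopa 2) to 0.51 (without Th0+Dopa 3) with 1 library left out.

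Neither effector passed. Bax (chromosome 7, 45461697 to 45466898) was the most abundant member in every library, at 226 FPKM in Th0 2, 208 in Th0 3, 216 in Th0+Dopa 2 and 182 in Th0+Dopa 3. The groups overlapped, and the log2 difference was -0.13 ± 0.10 (adjusted p = 0.469). After correction for GC content and transcript length it was -0.57 and passed (adjusted p = 0.0263). Bax transcripts were the shortest of the members (mean 647 bases) and had 58.4% GC. Bak1 (chromosome 17, 27019810 to 27029009) stood at 42.5 and 39.3 FPKM in Th0 (2 and 3) and at 45.8 and 62.9 with dopamine. Both dopamine libraries were above both Th0 libraries, but by 1.08-fold in one table and 1.60-fold in the other, and the log2 difference was 0.38 ± 0.16 (adjusted p = 0.193). It was 0.13 with a common sum, 0.17 after the GC and length correction, and 0.18 (without Th0+Dopa 3) to 0.59 (without Th0+Dopa 2) with 1 library left out.

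**Figure D2:**
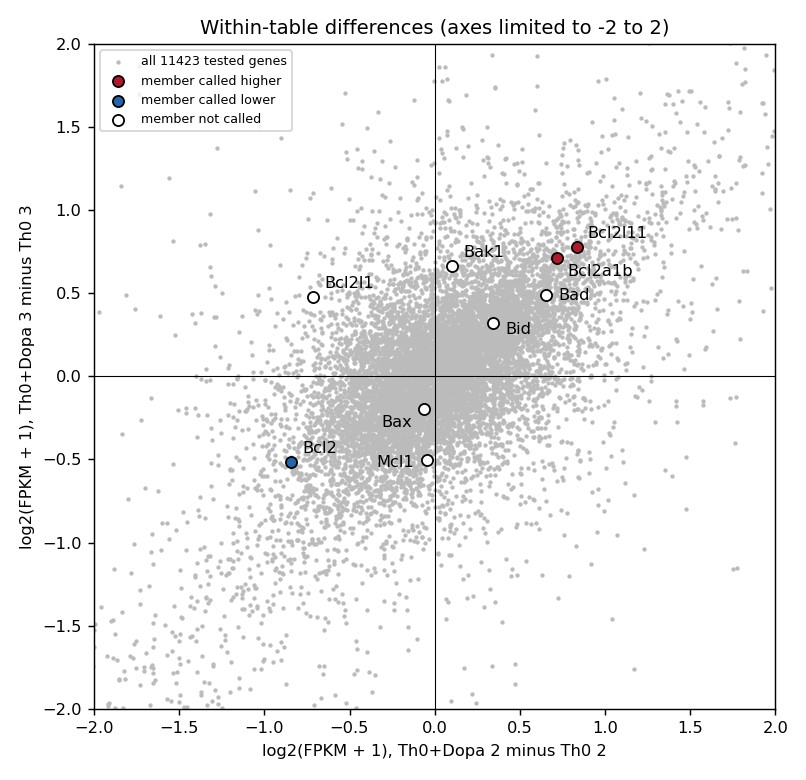
Log2 difference in the table of the libraries numbered 2 (x axis) against that in the table of those numbered 3 (y axis) for the members (large points) and all 11423 tested genes (grey). Bcl2l11 and Bcl2a1b lie in the upper right, Bcl2 in the lower left, and Bcl2l1, with -0.71 and 0.48, is the member in the upper left.

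The 3 calls depended on the processing as well as on the libraries. Without limma's trend all 3 were lost (adjusted p = 0.134 for Bcl2, 0.104 for Bcl2a1b and 0.0893 for Bcl2l11). With all 4 libraries but no block, Bcl2 (0.0728) and Bcl2l11 (0.0882) lost their calls, as they did with no filter on low values (0.0705 and 0.0771). With any 1 library left out, in fits that also lacked the block and were scaled by median of ratios, the log2 difference of Bcl2 was -0.80 to -0.56 with adjusted p = 0.153 to 0.409, that of Bcl2a1b 0.63 to 0.80 with adjusted p = 0.149 to 0.389, and that of Bcl2l11 0.66 to 0.95 with adjusted p = 0.214 to 0.363. Scaling to a common sum also cost Bcl2l11 its call (0.58, adjusted p = 0.113), and the GC and length correction cost Bcl2 its call (-0.69, adjusted p = 0.0507). Bcl2a1b kept its call in both, but the size of its difference moved. It was 0.46 with a common sum (limma adjusted p = 0.0494) and 0.88 after the correction (adjusted p = 0.0130). The directions of these 3 genes were the same in all 16 alternatives, but many of these could not change them. Changes of the filter, the block or the limma settings left the estimates as they were. The FPKM of the groups did not overlap for these genes, so leaving out 1 library could hardly turn a direction either.

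**Figure D3:**
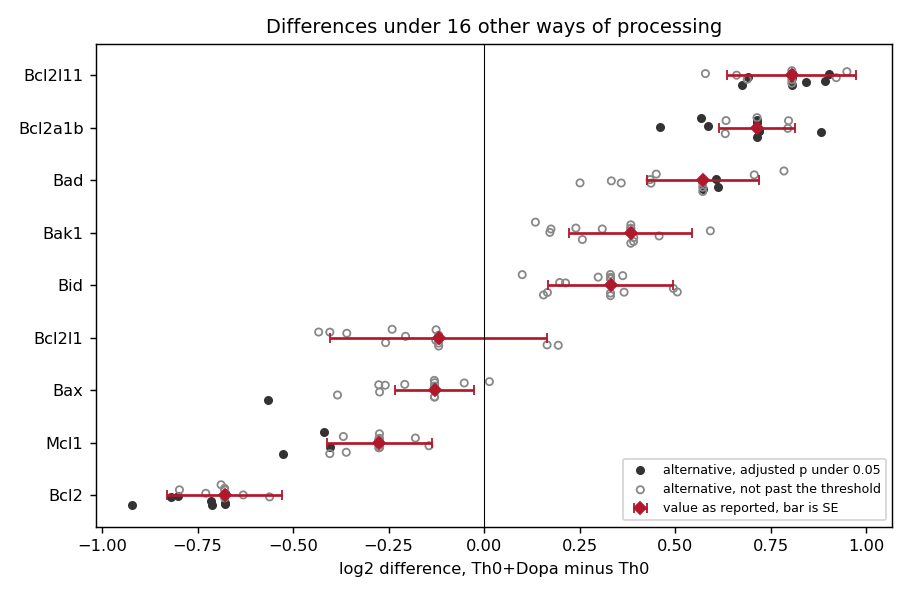
Log2 difference of each member as reported (diamond, bar is the SE) and under 16 alternatives (points with a small vertical jitter; filled where the adjusted p is under 0.05). Points of Bcl2, Bcl2a1b and Bcl2l11 keep to 1 side of 0, and those of Bcl2l1 and Bax reach both sides.

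FPKM is per length, so the levels of the members can be set in order. In both Th0 libraries the order from high to low was Bax, Mcl1, Bcl2a1b, Bak1, Bcl2, Bcl2l1, Bad, Bid and Bcl2l11, and the ranges of neighbours in that order did not overlap. With dopamine, Bcl2a1b (155 to 169 FPKM) lay above Mcl1 (118 to 138) in both libraries, in place of below it. Bcl2 (13.2 to 16.1) ranked 7 and 6 in place of 5, and its range overlapped those of Bcl2l1 (13.3 to 21.7) and Bad (15.6 to 20.8). Bcl2l11 (10.5 to 12.8) and Bid (9.34 to 11.9) also overlapped.

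Within a library, the share of a member in the summed FPKM of the 9 does not depend on how the library was scaled. The sum itself was 588 and 573 FPKM in Th0 (2 and 3) and 639 and 593 with dopamine. Bcl2a1b took 17.4% and 16.4% of it in Th0 and 26.5% and 26.1% with dopamine, Mcl1 24.3% and 29.2% against 21.6% and 19.9%, and Bcl2 4.15% and 4.08% against 2.06% and 2.71%. The 4 anti-apoptotic members together kept about the same share, 49.7% and 52.4% in Th0 and 52.2% and 52.4% with dopamine, with more of it from Bcl2a1b and less from Mcl1 and Bcl2. The 3 BH3-only members together had 4.67% and 4.39% in Th0 and a larger share, 6.76% and 6.37%, with dopamine. Pmaip1, a BH3-only gene that fell, is not part of this share. The 2 effectors had 45.6% and 43.2% in Th0 and a smaller share, 41.0% and 41.2%, with dopamine. These are descriptions, with no test over the members. The shares come from FPKM without the GC and length correction. That correction moved the log2 difference of Bad from 0.57 to 0.25 and that of Bax from -0.13 to -0.57.

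**Figure D4:**
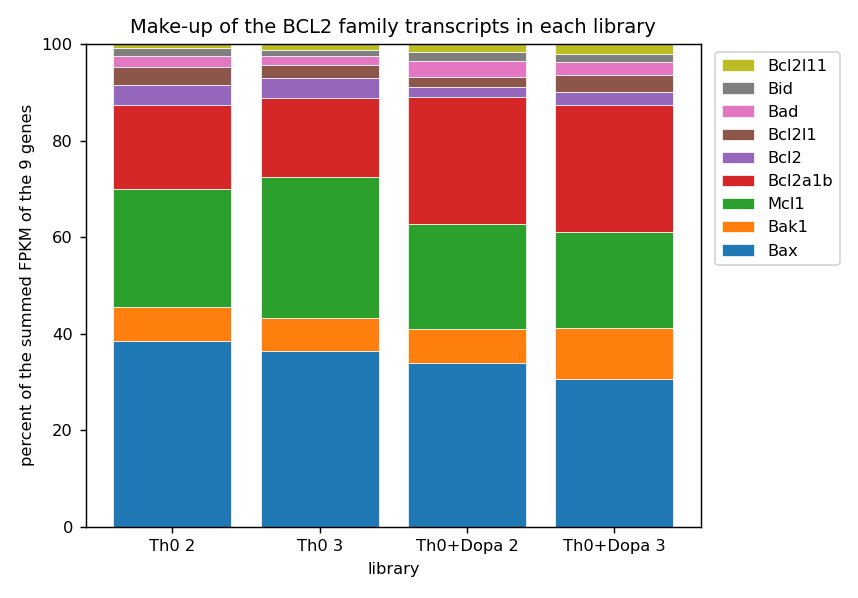
Percent of the summed FPKM of the 9 genes taken by each member (stacked bars, 1 per library). The Bcl2a1b segment is larger in both Th0+Dopa libraries (26.5% and 26.1%) than in both Th0 libraries (17.4% and 16.4%).

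Ratios between members within a library are free of the scaling too. The ratio of Bcl2l11 to Bcl2, a BH3-only gene to the anti-apoptotic protein it engages, was 0.223 and 0.302 in Th0 (2 and 3) and 0.797 and 0.798 with dopamine, 3.57-fold and 2.64-fold higher within the tables. The ratio of Bax to Bcl2 was 9.25 and 8.91 in Th0 and 16.4 and 11.3 with dopamine. The fitted differences of these 2 genes lay closer together after the GC and length correction (-0.57 for Bax and -0.69 for Bcl2) than before it (-0.13 and -0.68). The ratio of Bcl2a1b to Bcl2 was 4.20 and 4.02 against 12.8 and 9.63. These 3 ratios did not overlap between the groups, but all 3 are set against Bcl2, itself called lower. How often ratios of other genes do not overlap was not computed. The FPKM of single genes did not overlap for 57% of those tested. Set against Mcl1, Bax gave 1.58 and 1.24 in Th0 and 1.57 and 1.54 with dopamine, so the groups overlapped. The ratio of Bcl2l11 to Mcl1 was 0.0381 and 0.0422 in Th0 and 0.0760 and 0.109 with dopamine. That of Bax to its fellow effector Bak1 was 5.31 and 5.30 against 4.73 and 2.88. With 2 libraries a group, an exact two-sided permutation test cannot go below p = 0.333, so none was run on the ratios.

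**Figure D5:**
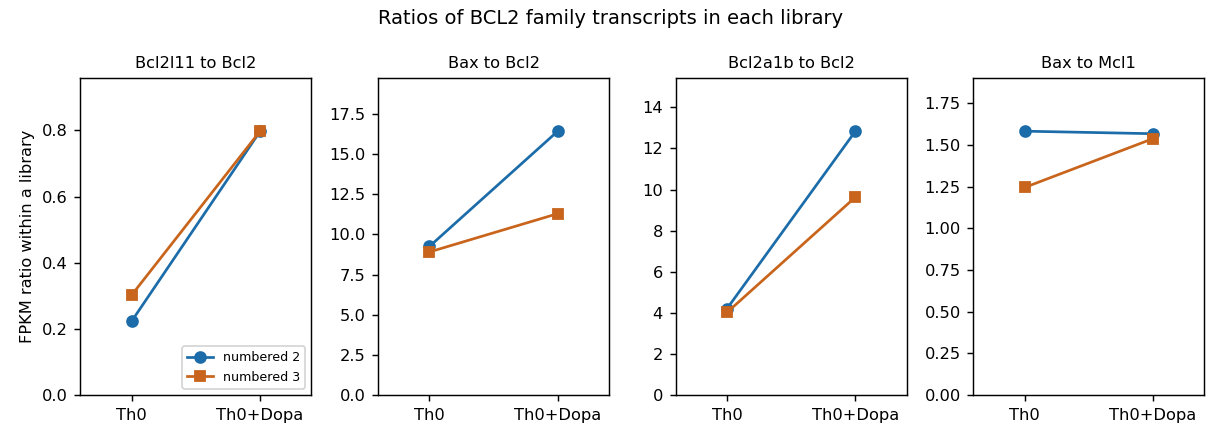
Ratio of FPKM of 2 members within each library (linear axes from 0); circles are the libraries numbered 2, squares those numbered 3, and lines join the libraries of 1 table. The ratio of Bcl2l11 to Bcl2 ends at 0.797 and 0.798 in the Th0+Dopa libraries, and the ratio of Bax to Mcl1 overlaps between the groups.

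Some members share exon bases with another gene, and no source used here says whether the counting used strand, which makes such values uncertain. On the opposite strand, Ggnbp1 shares 25.5% of the exon bases of Bak1, Gpr137 20.5% of those of Bad, Bcl2l13 17.7% of those of Bid and D630008O14Rik 6.09% of those of Bcl2. Ggnbp1 was at 0.749 to 2.81 FPKM, Gpr137 at 3.49 to 5.63, Bcl2l13 at 6.71 to 8.41 and D630008O14Rik, which was under the filter, at most at 0.495. The first 3 were tested and not called. On the same strand, Gm45808, to which no row was matched, shares 12.2% of the exon bases of Bax.

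The genes most like each called member were taken as the 3 tested protein-coding genes with the smallest Euclidean distance over the 4 libraries of log2(FPKM + 1), after subtracting the mean of the 4. For Bcl2 these were Zfp438, Dync2h1 and Gpi1 (distances 0.0461 to 0.0553), for Bcl2a1b Mrps16, Ahcy and Camk1d (0.0241 to 0.0434) and for Bcl2l11 Smyd4, Serpinb6a and Slc1a4 (0.0608 to 0.104). Only 4 libraries tell genes apart. Within a wider distance of 0.2 lay 104 genes for Bcl2 and 220 for Bcl2a1b, but 18 for Bcl2l11. Mrps16, a protein of the mitochondrial ribosome, had nearly the FPKM of Bcl2a1b itself, at 101 and 94.0 in Th0 and 165 and 153 with dopamine.

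Of 15 other BCL2 family genes listed, 7 were tested, and 1 of them passed. Pmaip1, which encodes the BH3-only protein NOXA that engages MCL1 and A1, fell from 19.1 and 19.4 FPKM in Th0 (2 and 3) to 9.72 and 10.5 with dopamine, a log2 difference of -0.87 ± 0.15 (limma adjusted p = 0.0228). This direction was opposite to that of the BH3-only gene Bcl2l11. Bbc3, which encodes PUMA, stood at 12.5 and 11.9 FPKM in Th0 and at 25.1 and 15.1 with dopamine (0.64 ± 0.19, adjusted p = 0.0972). Bik, a further BH3-only gene, had 0.82 ± 0.28 (adjusted p = 0.124) at 1.45 to 4.69 FPKM, and Bcl2l14 0.76 ± 0.25 (adjusted p = 0.119) at 1.86 to 4.36 FPKM. Bcl2l2, an anti-apoptotic gene that encodes BCL-W, had 0.23 ± 0.25, Bcl2l12 -0.05 ± 0.22 and Bcl2l13 0.12 ± 0.18, with adjusted p = 0.590 to 0.911. Under the filter lay 6 more: Bcl2a1c, an A1 copy, at 0.475 to 1.26 FPKM, and Bcl2l15 (at most 0.833), Bmf (0.605), Bok (0.580), Bcl2l10 (0.138) and Hrk (0.0744). For the last 2 of the 15, Bcl2a1a and Bcl2a1d, no row was matched.

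Around the family, 64 listed genes in 6 lists gave 54 tested genes. Of these, 6 were called higher and 1 (Pmaip1) lower, or 13.0%, near the 10.7% of all tested genes. The median difference of the 54 was 0.01, against 0.03 for all. In the apoptosome and caspase list 1 of 15 was called higher and none lower. This was Endog, a mitochondrial nuclease, which went from 3.53 and 1.89 FPKM in Th0 to 14.5 and 9.70 with dopamine (1.83 ± 0.19, limma adjusted p = 0.00613). Cycs, which encodes cytochrome c, had -0.34 ± 0.11 (adjusted p = 0.124). Among 8 tested genes of death receptor signalling and Bid cleavage, Gzmb rose. Its product, the protease granzyme B, can cleave BID, and it went from 47.5 and 46.4 FPKM to 170 and 186 (1.90 ± 0.11, adjusted p = 0.000952). Casp8 and Cflar, the initiator caspase that cleaves BID and its inhibitor, had -0.19 ± 0.13 and -0.05 ± 0.11 (adjusted p = 0.373 and 0.822). None of the 4 tested outer membrane partners passed, and Vdac2, which holds BAK at the membrane, had 0.11 ± 0.11 and Mtch2, the receptor of truncated BID, 0.16 ± 0.15.

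Of 9 tested regulators of the member proteins, the kinases Pim1 and Pim3, which can phosphorylate BAD, were called higher and none was called lower. Pim2, of the same kinase family, was below Th0 with dopamine in both tables but not called (-0.33 ± 0.15, limma adjusted p = 0.211). Pim1 went from 109 and 95.5 FPKM in Th0 to 168 and 149 with dopamine (0.63 ± 0.10, limma adjusted p = 0.0193), and Pim3 from 11.9 and 10.5 to 20.7 and 16.6 (0.68 ± 0.15, adjusted p = 0.0427). Usp9x, the enzyme that removes ubiquitin from MCL1, had 0.13 ± 0.14 and Akt1, another BAD kinase, -0.21 ± 0.11 (adjusted p = 0.617 and 0.298). Of 11 tested genes of cytokine survival signalling, 2 were called higher and none lower. Il7r, the receptor chain through which IL-7 sustains BCL2 in resting T cells, went from 8.69 and 9.94 FPKM to 17.3 and 19.9 (0.93 ± 0.15, adjusted p = 0.0191), so that it and Bcl2 were called in opposite directions. Il15ra went from 5.77 and 7.60 to 11.8 and 15.6 FPKM (0.93 ± 0.16, adjusted p = 0.0254). Il2rg, the common cytokine receptor chain, had -0.43 ± 0.12 and Il2rb 0.22 ± 0.14 (adjusted p = 0.0810 and 0.366).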

How the data were processed

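Gene expression from total RNA was analysed in 4 libraries, 2 per group. The authors deposited FPKM in 2 tables; the tools in the submitters' processing notes are STAR 2.4.2 and Cufflinks 2.2.1 on mm10, with reads handled by Trimmomatic 0.35, bcl2fastq 1.8.4 and FastQC 0.10.1. Per the labels' protocols the libraries were stranded, depleted of ribosomal RNA and globin mRNA, and run on 2 lanes each. No source used here gives the annotation release or the normalization options. GENCODE M21 (GRCm38) named 36339 of 38282 IDs. Genes averaging at least 1 FPKM were tested with limma 3.58.1 (eBayes with trend, two-sided, R 4.3.3) on log2(FPKM + 1), which understates changes of low genes; the prior added 4.70 degrees of freedom to 1 residual. The table, equal to the replicate number, was the block, because separately made tables can be compared only within each. Same-numbered libraries deviated together weakly (correlation 0.0869), and no label says that a number marks a shared culture. Nothing says that libraries came from separate animals, so the p-values reflect only how these samples vary, which may be technical. Members, lists and tests were chosen with earlier results of these data known. All members and all tested relatives were named. In each further list the calls and up to 2 abundant genes not called were named, with up to 2 abundant markers a list. Cd4, Cd8a, Elane, Pim2, overlapping genes and relatives under the filter were added afterwards. One gene that this rule names is not reported here. Alternatives changed the pseudocount, the filter, the scaling or the limma settings, dropped the block, left out each library (no block, median of ratios scaling, a lone library assumed to vary like the others) or corrected for GC content and length (loess, span 0.3).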

Additional observations from a re-analysis of the deposited data

How the results depend on the processing

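With 2 libraries a group, and no read counts used here, the calls rest on few degrees of freedom. Of the members, 3 were called (2 higher, 1 lower) and 1218 of all genes (717 higher, 501 lower). Without the replicate block, which compares levels across the separately made tables, 1 member was called (higher, 0 lower) and 496 genes (256 and 240). Without limma's trend 0 members were called, and 256 genes (106 and 150, 2738 at an unadjusted p under 0.05). With no filter beyond a mean FPKM above 0, 1 member was called (higher, 0 lower) and 740 genes (442 and 298). With a common sum of FPKM the members called were 1 higher and 2 lower, and the genes 375 and 1070, so that 26.0% of calls were higher, against 58.9% as deposited. With small RNA left out before the scaling, 2 members were called higher and 2 lower, with 1871 genes (1247 lower). With protein-coding genes alone, 2 members were also called higher and 2 lower, with 1896 genes (1241 lower). After the GC and length correction with the replicate block, 808 genes were called (423 higher, 385 lower). Leaving out each library in turn gave 0 members higher or lower and 0 to 3 genes (0 to 1 higher, 0 to 2 lower), with 1251 to 2765 at an unadjusted p under 0.05. In these fits Bcl2l1 ran from -0.43 to 0.19 and Bax from -0.27 to 0.014. Of the 144 values of single members under the alternatives, 3 changed sign, 21 lost and 7 gained a call and 113 kept both; the causes were not tested, but fits without a library have fewer samples.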
